A study of Mus musculus with 4 samples.

Results

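The regions described here are 2D borders that lie inside 3D TADs. A topologically associating domain (TAD) is a stretch of chromosome whose loci contact each other more often than they contact the neighbouring sequence, and its ends are called borders. The members were chosen by comparing the deposited TAD lists of 2D- and 3D-cultured cells on the 19 autosomes: a start or end of a 2D TAD was taken where no start or end of a 3D TAD lay within 40 kb, the width of one bin of the contact maps, and where the position fell strictly inside a 3D TAD. This rule found 865 members among 5681 distinct 2D borders. The values that chose them were the border positions themselves, so their number and their absence from the 3D list are descriptions and no test of a difference between the cultures.

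The cells were AML12, a mouse hepatocyte line (alpha mouse liver 12), grown as a monolayer in dishes (2D) or embedded in Matrigel, a basement membrane gel (3D), and profiled by in situ Hi-C, which cuts crosslinked chromatin with MboI and sequences the ligated ends. All cells were held at the G1/S boundary with 1 mM hydroxyurea, for 24 h in 2D and 36 h in 3D, so growth format, gel and hours of drug cannot be told apart in any comparison. There were 4 samples, 2 replicates for each culture, but each culture has 1 list of TADs, with 4221 TADs in 2D and 4094 in 3D on the autosomes. No border therefore has a replicate error, the number of contacts behind it is unknown, and no p-value is given. The lists hold no expression, so the hepatocyte identity of the cells was not checked against marker genes.

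TADs arise largely through loop extrusion, in which the ring-shaped cohesin complex reels in chromatin until it meets the zinc finger protein CTCF bound to DNA. CTCF stops cohesin mainly when its motif points towards the inside of the loop, and many borders also carry the promoters of active genes, housekeeping genes among them. Large TADs often contain weaker internal borders, and a caller may return the large TAD or its parts.

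Sequences are shown first for the members farthest from any 3D border, since these lie deepest inside a 3D TAD. Among the 10 farthest members, 2 had an exact match to the CTCF core consensus, in either strand, within 40 kb. Over 200 kb from a 3D border, such a match lay near 39.9% of members (73 of 183). It lay near 16.8% of all 40 kb grid positions that the rule allowed at that depth, so 2 of 10 does not set these members apart. Both groups include positions much less deep than the 10. The match nearest to the border in Dgkb, which encodes a diacylglycerol kinase, lay at chr12:38130377-38130428 (GRCm38, plus strand, 20 flanking bases included on each side), 10.4 kb from the border at position 38120000. The one nearest to the border beside Mef2c, the gene of a MADS-box transcription factor, lay at chr13:83655052-83655103 (minus strand), 24.9 kb from the border at 83680000. Among those without a match within 40 kb, the member upstream of the kinase gene Vrk2, at position 27080000, had the closest one, 89.6 kb away at chr11:26990406-26990457 (minus strand). Capitals mark the 12 bases of the consensus, read 5′ to 3′ on the strand of the match.
Dgkb border: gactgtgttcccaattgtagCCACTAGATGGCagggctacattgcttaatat
Mef2c border: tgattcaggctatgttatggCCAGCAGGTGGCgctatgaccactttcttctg
Vrk2 border: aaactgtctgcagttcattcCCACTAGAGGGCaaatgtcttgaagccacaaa

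The same match was searched in the RefSeq promoters (GRCm38.p6, from 250 bases before to 50 bases after the gene start) of the protein-coding genes that started within 40 kb of a member. A promoter was found for 834 of 1060 gene symbols, and 5 of them (0.6%, 95% Wilson interval 0.256 to 1.4) held a match, against 109 of 15687 (0.695%) over all autosomal protein-coding genes with a promoter and 58 of 5623 (1.03%, 0.799 to 1.33) near shared 2D borders. Both promoters printed here were chosen after their values were seen. Otop2, a proton channel gene, had the match closest to a border: its promoter (chr11:115322280-115322579, plus strand) had its centre 2.43 kb from the member at 115320000, where 2 2D TADs of 160 kb met at the centre of a 3D TAD of 320 kb. Cebpb, which encodes a basic leucine zipper regulator of liver genes, had the match at the upstream edge of its promoter (chr2:167688665-167688964, plus strand), whose centre lay 8.81 kb from the member at 167680000. Capitals mark the consensus.
Otop2 promoter: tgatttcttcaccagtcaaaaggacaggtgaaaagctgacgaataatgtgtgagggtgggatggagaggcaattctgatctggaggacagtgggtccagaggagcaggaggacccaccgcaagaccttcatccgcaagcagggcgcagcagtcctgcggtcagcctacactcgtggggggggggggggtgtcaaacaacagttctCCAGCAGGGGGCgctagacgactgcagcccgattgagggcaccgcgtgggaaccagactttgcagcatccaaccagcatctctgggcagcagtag
Cebpb promoter: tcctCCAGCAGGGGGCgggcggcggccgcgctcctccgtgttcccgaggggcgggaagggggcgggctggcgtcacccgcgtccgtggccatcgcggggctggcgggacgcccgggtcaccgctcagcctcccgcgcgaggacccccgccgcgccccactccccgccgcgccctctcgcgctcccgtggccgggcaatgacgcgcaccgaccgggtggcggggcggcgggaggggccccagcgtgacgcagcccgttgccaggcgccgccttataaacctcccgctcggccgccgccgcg

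Members made up 15.2% of the 2D borders. They were most of the 1005 2D borders (17.7%) with no 3D border within 40 kb; the other 140 lay in no 3D TAD. In the opposite direction, 292 of 5189 3D borders, or 5.63%, lay inside a 2D TAD with no 2D border within 40 kb. The share of 2D borders inside 3D TADs was above that of 3D borders inside 2D TADs on 19 of 19 chromosomes. It ran from 10.9% on chromosome 14 (28 of 256, 95% Wilson interval 7.68 to 15.4) to 19.7% on chromosome 11 (69 of 350, 15.9 to 24.2). All chromosomes come from the same pair of lists, so they do not repeat the comparison. The 3D list held fewer distinct borders than the 2D list, 5189 against 5681. The part of list size, or of the number of contacts behind each list, in this difference was not tested. Chromosome 14, with the lowest share of members, also had the highest share in the opposite direction, 8.95%, and the interval of its members' share includes that value. Wilson intervals here and below cover counting error only, and members that share a 3D TAD are not independent.

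**Figure D1:**
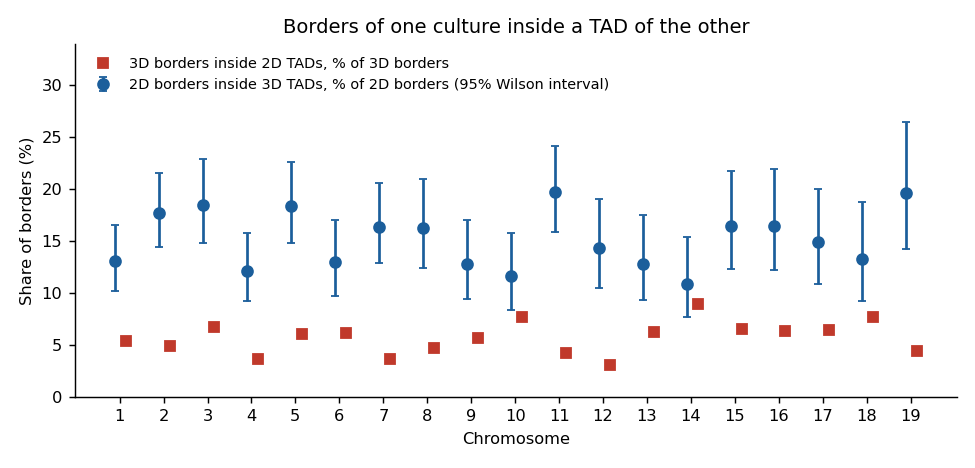
Share of borders (%) for each autosome. Circles give 2D borders inside 3D TADs as a percentage of that chromosome's 2D borders with 95% Wilson intervals, and squares give 3D borders inside 2D TADs as a percentage of its 3D borders. The circles lie above the squares on all 19 chromosomes, from 10.9% (chromosome 14) to 19.7% (chromosome 11).

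A 2D border can be a junction, where 2 TADs meet, or the edge of an unassigned interval that no 2D TAD covers. Junctions made up 338 members (39.1%, 95% Wilson interval 35.9 to 42.4). The other 527 (60.9%, 57.6 to 64.1) stood beside an unassigned interval, of which 256 were starts and 271 were ends of 2D TADs. Among the 4676 shared 2D borders, those with a 3D border within 40 kb, 48.5% (47.1 to 49.9) stood beside such an interval, and the share was higher at members on 18 of 19 chromosomes. This order depended on the distance that counts as shared. With 80 kb in place of 40 kb, 42.7% of 541 members stood beside an interval, against 51.9% of the shared borders.

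The threshold itself fixes part of this. The shortest 2D TAD measured 120 kb and no unassigned interval was shorter than 80 kb, so a member 80 kb away from a position where both lists had a border could only be the far edge of an interval. Of the 324 members at 80 kb, just inside the threshold, 91.4% stood beside an interval, against 42.7% of the members farther in. Just outside it lay 986 2D borders at 40 kb from the nearest 3D border, of which 860 were inside a 3D TAD and 56.4% stood beside an interval. In all, 382 members (44.2%) were the inner edge of an interval whose other edge was shared with 3D, and in 291 of these cases that other edge lay within 40 kb of an end of the same 3D TAD. The unassigned stretch measured 80 kb in 228 of the 382.

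Across the autosomes, 457 of 1441 unassigned 2D intervals (31.7%) had a member at an edge. Both edges were members in 70, and in 51 of these they lay in the same 3D TAD, which thus bridged the interval. The interval lay wholly inside the 3D TAD in 324 of the 457 cases. Length did not set these intervals apart, since 58.2% of them measured 80 kb, against 57.2% of the 984 without a member, although the longest reached 880 kb.

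By the rule, members lie at least 80 kb from a 3D border, so their positions are set against all positions of the 40 kb grid that the rule allowed. There were 43356 such positions, of which 2.00% were members. The median distance to the nearest 3D border was 120 kb (quartiles 80 and 200 kb, highest 2240 kb) for members and 320 kb (160 and 720 kb) for allowed positions. 3D TADs above 1000 kb held most of the allowed positions, 27766. The allowed positions of each member's own 3D TAD were also averaged per member, so that each member counted once. On this average 29.7% of allowed positions lay 80 kb from a 3D border, against 37.5% of members (34.3 to 40.7). Over 200 kb away lay 28.8% on this average, against 21.2% of members (18.6 to 24.0). Between 120 and 200 kb the shares of members and these averages of allowed positions differed by less than the counting interval.

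**Figure D2:**
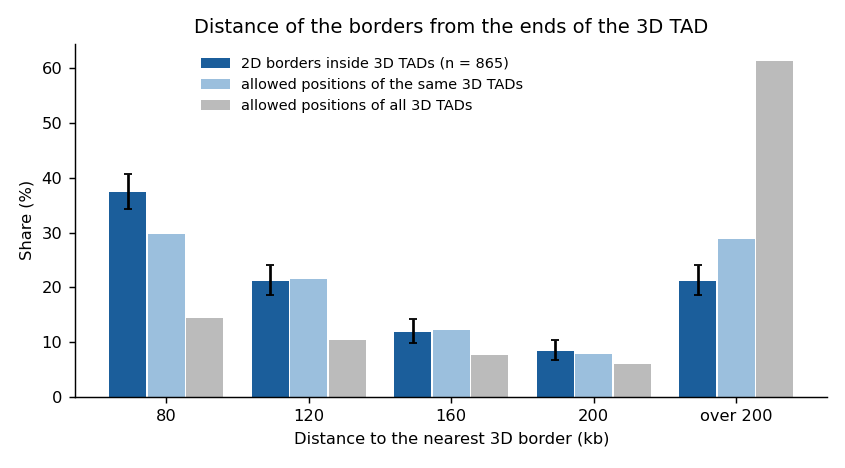
Share (%) of positions by distance to the nearest 3D border in kb. Dark bars are the 865 members with 95% Wilson intervals. Light bars are the allowed positions of each member's own 3D TAD, averaged per member. Grey bars are the allowed positions of all 3D TADs, pooled. Members exceed the average of their own TADs at 80 kb (37.5% against 29.7%) and fall below it over 200 kb (21.2% against 28.8%).

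Members were spread over the length of the 3D TAD. When each TAD was divided into 3 equal parts, 305 members (35.3%, 32.1 to 38.5) lay in the middle part. For allowed positions the share was 43.7% when averaged per member over its own 3D TAD. Pooled over all 3D TADs it was 38.8%. Upstream of the centre lay 396 members (45.8%), exactly at the centre 49 (5.66%) and downstream 420 (48.6%, 45.2 to 51.9). The intervals of the upstream and downstream shares overlapped. Junctions lay deeper than interval edges, part of which the threshold fixes, as described above. Their median distance to the nearest 3D border was 200 kb, against 80 kb for edges whose other edge was shared and 160 kb for the remaining 145. The 3D TADs of these 3 groups had median sizes of 640, 320 and 600 kb. In the middle part lay 45.9% of junctions.

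The members fell in 628 of 4094 3D TADs (15.3%). A single member was found in 461 of these TADs, 2 in 117, 3 in 38, 4 in 6, 5 in 4 and 6 in 2. The 167 TADs with several members together held 404 members, or 46.7%. The 3D TADs with members had a median size of 400 kb (quartiles 280 and 680 kb, range 160 to 5960 kb), against 240 kb for those without, but TADs under 160 kb cannot hold a member by construction. By size, 8.77% (7.36 to 10.4) of 3D TADs of 160 to 240 kb held a member, 26.7% of those of 280 to 400 kb, 27.5% at 440 to 600 kb, 23.4% at 640 to 1000 kb, 16.9% above 1000 and up to 2000 kb and 25.8% (20.6 to 31.7) above 2000 kb. Above 240 kb the share showed no steady rise with size, although larger TADs offer more positions. Per 100 allowed positions, members numbered 6.01 in TADs of 280 to 400 kb and 0.504 in those above 2000 kb.

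Most of these 3D TADs kept their outer ends. Both ends had a 2D border within 40 kb in 429 of 628 (68.3%), 1 end in 190 and neither in 9. Among the 2766 3D TADs of at least 160 kb without a member, both ends were matched in 88.3%. In 329 of the 461 TADs with 1 member both ends were matched, and the member was the only 2D border inside that the rule counted. 2D TADs covered a median of 80% of the length of a 3D TAD with members, and covered it wholly in 186.

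The 3D TAD at chr2:3320001-4880000 (1560 kb) held 6 members and 6 whole 2D TADs of 120 to 480 kb. Members lay inside Dclre1c (the Artemis nuclease), Cdnf (a neurotrophic factor), Frmd4a and Prpf18 (a splicing factor), and the member at 3800000 lay in no protein-coding gene, 218 kb from the nearest start. A second 3D TAD with 6 members, chr2:31320001-32120000 (800 kb), included 2D junctions in Exosc2, an RNA exosome subunit, in the Abl1 kinase gene and in the laminin gene Lamc3. One of its members, at 31480000, lay inside Ass1, the urea cycle enzyme argininosuccinate synthase, 9.79 kb from its start. These TADs held 13 and 12 protein-coding starts.

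Other 3D TADs with many members held fewer gene starts. The 5280 kb TAD at chr3:45080001-50360000 held 5 members and 3 protein-coding starts, and Pcdh10, a protocadherin of cell adhesion, started 58.4 kb from its first member while the other 4 lay 277 kb or more from Pcdh18. The 1200 kb TAD at chr12:76960001-78160000 held 5 members and 2 starts, with the nearest 1.88 kb from Fut8, the fucosyltransferase that builds core fucose on N-glycans. By contrast the 640 kb TAD at chr11:86480001-87120000 had 5 members among 12 starts, and 2 of them lay 3.84 kb from the start of Vmp1, an autophagy gene, and 2.44 kb from that of Cltc, the clathrin heavy chain. In this TAD only 62.5% of the length belonged to 2D TADs. A further 3D TAD also held 5 members and was not described because the rule for naming took 5 TADs.

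**Figure D3:**
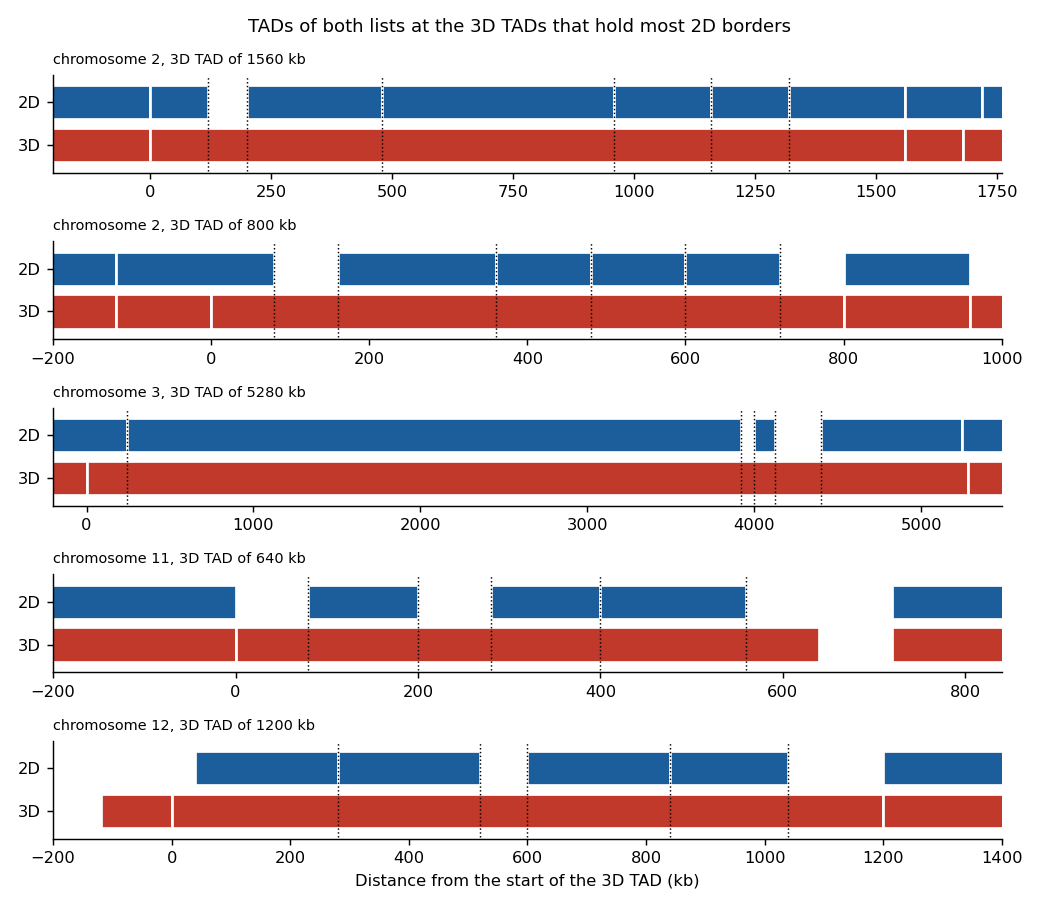
TADs of the 2D list (upper bars) and the 3D list (lower bars) at 5 3D TADs with 5 or 6 members, by distance in kb from the start of the 3D TAD. Dotted lines mark members, and white spaces are stretches that no TAD covers. In each map the 3D bar runs unbroken past positions where 2D TADs meet or leave an interval.

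The 1203 TAD ends at members belonged to 2D TADs with a median size of 200 kb (quartiles 120 and 400 kb), against 240 kb (160 and 480 kb) for the 7085 at shared borders and 360 kb for the 3D TADs at the 292 3D borders inside 2D TADs. The smallest size in the 2D list, 120 kb, accounted for 30.3% (27.7 to 32.9) at members and 20.2% (19.3 to 21.2) at shared borders. Beside the unassigned intervals the median was 160 kb at members and 240 kb at shared borders. At junctions the smaller of the 2 TADs had a median of 160 kb in both groups, and the larger one 360 kb at members and 400 kb at shared borders. The smaller TAD measured 120 kb at 44.7% of junction members (39.5 to 50.0) and at 36.0% of shared junctions (34.1 to 38.0), but it also exceeded 600 kb at 12.7% of junction members (43 of 338) and at 5.69% of shared junctions (137 of 2409).

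Seen from the 2D TADs, 1011 of 4221 (24.0%) had a member at an end and 192 had one at each end. Of the 1011, 904 (89.4%) lay wholly inside the 3D TAD, and 107 reached past it. A member stood at an end of 299 of the 930 2D TADs of 120 kb (32.2%) and of 191 of the 843 above 600 kb (22.7%). By the rule a 2D TAD has a member only where it ends inside a 3D TAD.

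**Figure D4:**
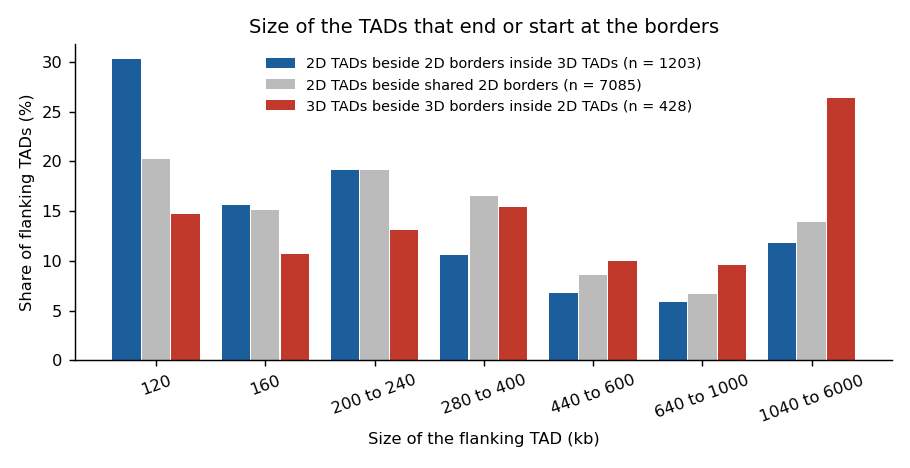
Sizes of the TADs that end or start at borders, as a share (%) of flanking TADs in each size class in kb. Dark bars are 2D TADs at members, grey bars 2D TADs at shared borders and red bars 3D TADs at 3D borders inside 2D TADs. The class of 120 kb holds 30.3% at members, 20.2% at shared borders and 14.7% at the 3D borders.

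Gene starts were less common at members than at shared borders and more common than at other allowed positions. A protein-coding gene started within 40 kb of 550 members (63.6%, 60.3 to 66.7), of 74.4% (73.2 to 75.7) of shared borders, of 51.0% (45.3 to 56.7) of the 3D borders inside 2D TADs and of 25.5% of allowed positions. The share at members was below that at shared borders on 17 of 19 chromosomes and above that at allowed positions on 19 of 19. Since members sat in shorter and more gene-rich 3D TADs than the average allowed position, the closer comparison is with the other allowed positions of the same 3D TADs. Averaged per member over the 862 members for which such positions exist, 50.3% of these had a start within 40 kb, against 63.7% of those members.

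Counts per bin were taken over 400 kb on each side. At shared borders the mean number of protein-coding starts reached 0.799 and 0.779 in the 40 kb bins on either side of the border, and stayed between 0.495 and 0.606 in all bins farther out. At members the corresponding bins held 0.602 and 0.624 starts, while bins farther out held 0.504 to 0.618, a range that includes the lower of the values at the border and lies below the higher one. With a median of 120 kb between members and the nearest 3D border, the bins farther out take in 3D borders, so they are not a baseline from within the 3D TAD. Members with 3 or more starts within 40 kb numbered 115 (13.3%, 11.2 to 15.7), against 20.2% of shared borders.

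Matches to the CTCF consensus numbered 0.365 and 0.36 per bin beside the border and 0.239 to 0.325 in bins farther out, against 0.441 and 0.437 beside shared borders and 0.259 to 0.298 farther out. A match lay within 40 kb of 407 members (47.1%, 43.7 to 50.4), of 55.7% of shared borders (54.3 to 57.1), of 41.1% of the 3D borders inside 2D TADs (35.6 to 46.8) and of 22.8% of allowed positions. The share was below that of shared borders on 15 of 19 chromosomes. In the same 3D TADs, 35.5% of other allowed positions had a match when averaged per member, against 47.2% of the 862 members compared with them. A match of these letters is a description of sequence, and CTCF binding in AML12 cells was not analysed here.

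**Figure D5:**
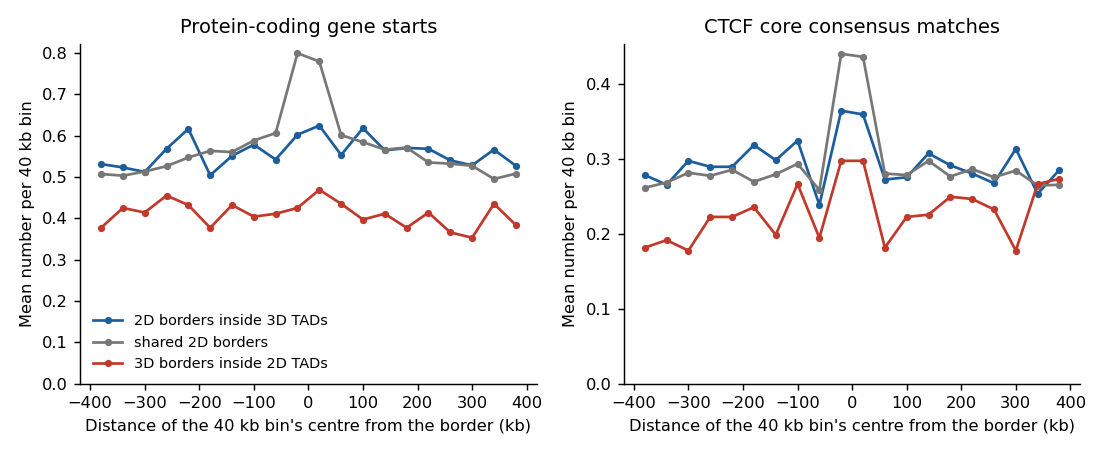
Mean number of protein-coding gene starts (left) and of CTCF core consensus matches (right) per 40 kb bin, by distance in kb of the bin's centre from the border. Blue points are members, grey points shared 2D borders and red points 3D borders inside 2D TADs. Beside shared borders the bins hold up to 0.799 starts and 0.441 matches, and beside members 0.602 and 0.624 starts and up to 0.365 matches.

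The matches had a preferred direction. In the outermost 40 kb bin of a flanking 2D TAD, a match pointing into the TAD was found at 257 of the 1203 TAD ends at members (21.4%, 19.1 to 23.8) and one pointing out of it at 162 (13.5%, 11.7 to 15.5). At shared borders the shares were 26.7% (25.7 to 27.7) and 14.7% (13.9 to 15.5). The inward share was thus lower at members than at shared borders, whereas the intervals of the outward shares overlapped.

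Among members, gene starts set apart only the interval edges whose other edge was shared. The median size of their 3D TADs was 320 kb, against 640 kb for junctions and 600 kb for the remaining edges. The part of TAD size in this was not tested. A protein-coding start lay within 40 kb of 57.4% (52.1 to 62.6) of junction members, of 71.5% (66.7 to 75.8) of interval edges whose other edge was shared and of 57.2% (49.1 to 65.0) of the remaining edges. CTCF matches lay within 40 kb of 49.7%, 47.6% and 39.3% of them, with overlapping intervals. Among shared borders the shares with a start were 71.5% at junctions and 77.5% (75.8 to 79.2) at interval edges, against 67.6% (63.4 to 71.4) at all interval edges among members, so members were lower in both kinds.

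Gene starts followed the size of the 3D TAD. They lay near 76.9% (72.3 to 80.9) of members in 3D TADs of 160 to 400 kb, 65.1% at 440 to 1000 kb and 35.4% (29.0 to 42.4) above 1000 kb, against 57.9%, 32.5% and 15.5% of the allowed positions in TADs of these sizes. CTCF matches fell less across the same classes, with 50.3%, 47.5% and 40.1% of members and 35.7%, 28.2% and 17.9% of allowed positions. At 80 kb from a 3D border 70.1% of members and 51.8% of allowed positions had a start nearby, and beyond 200 kb 39.3% and 15.3%.

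Base composition at members was close to that at shared borders and differed more from that at allowed positions. The bins on both sides of a member held 44.1% GC (SD 3.96, n = 865), against 44.3% at shared borders, 42.3% at 3D borders inside 2D TADs and 41.2% at allowed positions. Against the other allowed positions of the same 3D TAD, members were higher by 0.233 percentage points of GC. Annotated repeats took 29.9% of bases at members, 30.5% at shared borders and 33.9% at allowed positions. MboI, the enzyme of the assay, had 97.5 sites per 40 kb at members and 97.2 at shared borders. The part of composition in the comparisons above was not tested.

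Members lay inside a protein-coding gene in 480 cases (55.5%, 52.2 to 58.8), close to the 56.0% of shared borders. Other allowed positions in the same 3D TADs, averaged per member, gave 54.4%. The 480 distinct genes that held a member had a median length of 74.0 kb, against 17.6 kb for all autosomal protein-coding genes, as longer genes offer more positions. Of the 953 genes above 200 kb, 92 (9.65%) held a member, against 2.31% of all 20807. In 415 of the 480 genes (86.5%) the whole gene lay inside the 3D TAD, so that the 2D border divided it and the 3D list did not. The rule favours this, because members lie at least 80 kb from a 3D border and these genes had a median of 74.0 kb. The same share for genes at other allowed positions was not computed. The position fell in an exon in 60 of 496 pairs of member and gene, and otherwise in an intron.

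The 10 longest such genes all held their members in an intron, and 8 of the 10 ran past the 3D TAD. Gm20388, Gm37240 and Fgfr2 overlapped 73, 7 and 30 other protein-coding genes in the annotation, so their GENCODE spans of 4435, 1391 and 2961 kb also take in neighbouring genes. Gm20388 and Fgfr2 held 2 members each. The remaining 7 held 1 member each, and 6 of them are named here: Pcdh15, a protocadherin of hair cells (1550 kb), Rbfox1, a splicing regulator (1526 kb), the phosphodiesterase gene Pde4d (1504 kb), the adhesion gene Opcml (1135 kb), the potassium channel interactor Kcnip4 (1135 kb) and Nrg1, a neuregulin ligand of ERBB receptors (1069 kb). Pcdh15 lay wholly inside its 3D TAD of 3520 kb. Its member was a junction 280 kb from the nearest 3D border and close to the 3′ end of the gene.

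Of the 10 members farthest from a 3D border, all were junctions. The 2 farthest lay in 1 of the 2 longest 3D TADs with members, chr16:78640001-84600000 (5960 kb), at 82360000 and 82480000, 2240 and 2120 kb from its downstream end, and bounded a 2D TAD of 120 kb between neighbours of 3720 and 2160 kb. The nearest protein-coding start, of Gm21833, lay 348 kb from the closer of them. On chromosome 7 the member at 70360000 lay inside Nr2f2, the gene of the nuclear receptor COUP-TFII, 6.74 kb from its start, at 50.5% of a 3D TAD of 4040 kb. On chromosome 17 the member at 10320000 lay 0.146 kb from the start of Qk, an RNA-binding regulator of splicing, at 50.0% of a TAD of 3760 kb. The farthest members on chromosome 3 lay inside Nlgn1, a synaptic adhesion gene, and inside Ptbp2, a splicing repressor. Also among the 10, the member on chromosome 7 at 41320000 lay 73.4 kb from the start of AI987944.

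Of these 10 deepest members, which lay 1440 kb or more from a 3D border, 2 had a protein-coding start within 40 kb. Over 200 kb from a 3D border, a start lay near 39.3% of members (72 of 183) and 15.3% of allowed positions. Both of these groups include positions much less deep than the 10. Across all members, 26 of 865 lay within 1 kb of a protein-coding start. Border positions are multiples of 40 kb, so such distances are finer than the contact maps resolve. The closest were those of Tonsl, a replication-fork repair factor (0.042 kb), and 1700016K19Rik (0.088 kb), before Qk. Names were chosen from this group after its values were seen. A further 25 members had no protein-coding start within 400 kb, and 14 lay in 3D TADs without any. For these counts, and for the one within 1 kb, no share at shared borders or allowed positions was computed.

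The most gene-dense surroundings were found at the member at chromosome 10 position 77720000, with 11 protein-coding starts within 40 kb. It lay inside Tspear, 0.599 kb from Krtap12-1, a keratin-associated protein gene of hair. The member at 107600000 on chromosome 9 had 8 starts nearby, among them the hyaluronidase genes Hyal1, Hyal2 and Hyal3, and lay inside Sema3b, a secreted semaphorin. Those at Tonsl on chromosome 15 and at Fkbpl on chromosome 17 had 8 each, the latter with the stress-response factor Atf6b and the matrix gene Tnxb. The member near E130208F15Rik on chromosome 7 had 7. These 5 stood beside an unassigned interval, 80 kb from a 3D border, in 3D TADs of 200 to 320 kb, but other members also had 7 starts, and the one at 70240000 on chromosome 11 lay 160 kb from a 3D border in a 400 kb TAD.

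Gene classes were compared by the share of their genes that started within 40 kb of a 2D border inside a 3D TAD. Over all protein-coding genes this was 1061 of 20807 (5.1%, 4.81 to 5.41), and 35.5% started within 40 kb of a shared border. Distances given for single genes run from the gene's start to the border. Housekeeping classes started near shared borders in larger shares than all genes. Near members the intervals of the ribosomal and respiratory classes include the share of all genes. Cytosolic ribosomal protein genes gave 2 of 81 (2.47%, 0.68 to 8.56) near members and 66.7% near shared borders, the nuclear respiratory chain 4 of 83 (4.82%) and 60.2%, and histones 0 of 79 (0.0 to 4.64) and 57.0%. The ribosomal genes near members were Rpl11 (13.4 kb) and Rpl19 (26.7 kb). The nearest respiratory genes were Cox7a2l, a supercomplex assembly factor (2.67 kb), Ndufs3 (15.2 kb) and Ndufa13 (22.6 kb), both of complex I.

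Of 27 hepatocyte transcription factor genes, 4 started near a member (14.8%, 5.92 to 32.5) and 22.2% near a shared border. Cebpb lay 8.91 kb from a junction of 2D TADs of 160 and 240 kb within a 3D TAD of 600 kb. Mlxipl, which encodes the glucose sensor ChREBP, held a member 30.1 kb from its start, in a 360 kb TAD. Nr0b2, the gene of the orphan receptor SHP that represses bile acid synthesis, started 33.4 kb away, and Xbp1, of the unfolded protein response, 39.3 kb. The interval reaches down to near the share of all genes.

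Plasma protein genes made in liver gave 4 of 71 (5.63%, 2.21 to 13.6). They were Itih4, an inter-alpha-trypsin inhibitor chain (6.48 kb), Vtn, vitronectin (19.1 kb), Lcat, the cholesterol acyltransferase of plasma (23.4 kb), and Trf, transferrin (30.4 kb). Among genes of G1/S and replication, the stage at which these cells were held, 6 of 60 (10.0%, 4.66 to 20.1) started near a member and 61.7% near a shared border. Cdkn2a and Cdkn2b, neighbouring inhibitors of cyclin-dependent kinases, started 14.7 and 31.0 kb from the same junction, which fell inside Cdkn2a and had both starts on its downstream side. The others were Rpa1, of the single-strand binding complex (28.3 kb), Orc5, of the origin recognition complex (30.4 kb), Timeless, of the fork protection complex (32.1 kb), and Tyms, thymidylate synthase (33.6 kb). Adhesion and matrix genes gave 4 of 195 (2.05%, 0.801 to 5.15), with an interval that includes the share of all genes: Itgb6 (2.64 kb), the cadherin gene Cdh6 (13.7 kb), the collagen gene Col24a1 (27.5 kb) and Lamc3 (32.7 kb).

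Cytochrome P450 genes and conjugation enzymes had shares near members whose intervals include the 5.1% of all genes. Near shared borders their shares were 19.1% and 13.8%, against 35.5% of all genes. Cytochrome P450 genes gave 6 of 94 (6.38%, 2.96 to 13.2), with Cyp2w1 (7.38 kb), Cyp4f18 (9.63 kb) and Cyp4f37 (18.7 kb) nearest. Conjugation enzymes gave 5 of 65 (7.69%, 3.33 to 16.8), with the glutathione transferase genes Gsta2 (4.21 kb), Gstm7 (11.8 kb) and Gstm6 (23.7 kb) nearest. Solute carriers gave 27 of 335 (8.06%, 5.6 to 11.5), an interval above the 5.1% of all genes, with Slc4a8, a bicarbonate transporter (1.75 kb), Slco3a1 (5.22 kb) and Slc27a3 (10.1 kb) nearest. Neighbouring genes of a class can share 1 member, as Gstm6 and Gstm7 did, so the counts are not independent.

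Olfactory and vomeronasal receptor genes, which form large tandem clusters, were rare near members. Olfactory receptor genes gave 3 of 1128 (0.266%, 0.0905 to 0.779) and vomeronasal receptor genes 1 of 327 (0.306%, 0.054 to 1.71). Clustered protocadherins gave 0 of 57, with an interval (0.0 to 6.31) that includes the share of all genes. Near shared borders these families were also rare, at 5.32%, 4.28% and 7.02%. The exceptions were Olfr1441, Olfr521 and Olfr412, at 22.6 to 37.9 kb, and Vmn2r3 at 30.3 kb. Zinc finger genes gave 31 of 455 (6.81%, 4.84 to 9.51), with Zfp668 and Zfp646 at 3.17 and 3.78 kb from the same member. Keratin genes gave 2 of 110, homeobox genes 2 of 115 (Meis3 at 15.1 kb and Nkx2-1 at 23.1 kb), G protein-coupled receptors 7 of 143 (4.9%) and chromatin loop proteins 2 of 21, which were Esco1, a cohesin acetyltransferase, and Ctcfl, the germline paralogue of CTCF.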

How the data were processed

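In situ Hi-C libraries of AML12 cells (2 replicates for each of 2D and 3D) were mapped to mm10 by the authors with Bowtie2 2.2.9, and contact maps at 40 kb were normalised and scaled to equal depth per chromosome before TADs were annotated with Armatus (gamma 0.8). The deposited values used are genome coordinates of TAD starts and ends, 1 list for each culture with replicates merged. A border missing from a list may be absent or may have been passed over by the caller, which the lists do not show. The contact maps, compartments and expression were not analysed here, and unused columns of per-sample values numbered 0.

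Starts and ends were used as deposited, and printed TAD starts have 1 base added. Borders were compared with Python 3.11.15, numpy 2.4.6 and pandas 2.3.3. Scripts were tested on simulated lists with known answers, and 6 of 6 measures were recovered. Gene starts are the outermost 5′ ends in GENCODE M21, sequence is RefSeq GRCm38, and matches to the CTCF core consensus (12 letters, exact, both strands) numbered 12245 on the autosomes. Intervals are 95% Wilson intervals. With 1 list for each culture no test between them was possible.

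The members and the 18 gene lists were chosen with earlier results of these data known. Genes were named by rule: the 10 members deepest in a 3D TAD, the 5 TADs with most members, the 10 longest genes holding a member, the 5 most gene-dense members, all genes of the 4 main lists near a member and the 3 nearest of each other list. One of the 10 longest genes is not reported here.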

Additional observations from a re-analysis of the deposited data

How the results depend on the processing

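Of 32 alternative values, 30 planned and 2 chosen after seeing the data, 15 moved by less than their counting interval or stayed within 1.5 times the number of members, and 17 moved more. The number of members was 1725 when only the same position counted as shared, 541 with 80 kb, 338 with junctions only and 524 with 2D TADs of at least 200 kb. The share in the middle part of the 3D TAD rose from 35.3% to 47.7% with 80 kb, to 38.7% in 3D TADs with both ends matched and to 45.9% for junctions, and the share beside an unassigned interval fell to 42.7% with 80 kb. The share with a protein-coding start nearby was 68.1% for the same position, 59.7% with 80 kb, 57.4% for junctions, 43.8% in a window of 20 kb, 77.8% in 80 kb and 83.8% with all annotated genes. CTCF matches lay near 32.1% in 20 kb and 63.1% in 80 kb, and 60.3% of members lay in a gene when all genes were used. Wider windows hold more features by construction. Gene starts and CTCF matches were less common at members than at shared borders in 8 of 8 settings, the flanking 2D TADs had a smaller median in 5 of 6 and an equal one with TADs of at least 200 kb, and unassigned intervals were more common at members in 4 of 5, the exception being 80 kb. No paired analysis was possible because each culture has a single list that merges its replicates, and for the same reason no replicate could be left out. The depth behind each border is unknown.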

Other observations

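Chromosome X was left out of the autosomal counts. On it 64 of 375 2D borders (17.1%, 95% Wilson interval 13.6 to 21.2) lay inside 3D TADs, and 30 of 374 3D borders (8.02%) lay inside 2D TADs. Of the 64, 49 (76.6%, 64.9 to 85.3) stood beside an unassigned 2D interval. A protein-coding gene started within 40 kb of 32.8% of them (22.6 to 45.0), against 52.8% of the 282 shared 2D borders on this chromosome (47.0 to 58.6), and a CTCF core consensus match lay within 40 kb of 15.6% (8.71 to 26.4), against 42.2% (36.6 to 48.0).

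Other classes of annotated genes were counted near autosomal members in the same way. Long intergenic RNAs gave 172 of 5209 (3.3%, 2.85 to 3.82), processed pseudogenes 270 of 8924 (3.03%), microRNA genes 75 of 2054 (3.65%), antisense RNAs 146 of 2913 (5.01%, 4.28 to 5.87), miscellaneous RNAs 26 of 527 (4.93%, 3.39 to 7.13) and processed transcripts 43 of 753 (5.71%, 4.27 to 7.6), against 5.1% of protein-coding genes. The intervals of the last 3 include that value.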
